A study of Homo sapiens with 8 samples.

Results

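The genes described here were 10 genes of DNA end joining and of the DNA damage checkpoint, namely XRCC5, XRCC6, PRKDC, XRCC4, LIG4, TP53BP1, ATM, ATR, CHEK1 and CHEK2. They were chosen by name, by the symbol in the gene table, and each symbol matched a single identifier, which gave 10 of the 65962 identifiers kept. Messenger RNA was sequenced from A673, an established cell line from a Ewing Sarcoma, a bone and soft tissue tumor driven by the EWS/Fli1 fusion protein. The line carries mutant p53. Cells were treated for 36 hours with 2 μM JIB-04, an inhibitor of the Jumonji family of histone demethylases given as its active E isomer, or with DMSO vehicle, and each group had 4 libraries. No source used here says whether the 4 libraries of a group came from separate cultures, so each p-value reflects only how far these libraries spread, which may be technical.

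A double-strand break in DNA can be rejoined end to end without a template. The Ku70/Ku80 ring slides onto the broken ends and recruits the kinase DNA-PKcs, and the ligase LIG4 with its scaffold XRCC4 seals them. In parallel, the related kinases ATM and ATR, activated by breaks and by single-stranded DNA, signal through CHEK2 and CHEK1 to hold the cell cycle, while TP53BP1 on the chromatin beside the break favors end joining over resection.

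The deposited values were FPKM, fragments scaled to transcript length and library size, so that levels of different genes can be set side by side. Summed FPKM were 1175410 to 1237190 in the JIB-04 libraries and 1346290 to 1370440 in the vehicle libraries. The 9 Ewing Sarcoma markers (FLI1, EWSR1, CD99, NKX2-2, NR0B1, STEAP1, PRKCB, CCND1 and LIPI) were present in every library and summed to 2260 to 2694 FPKM in JIB-04 and 3496 to 3739 FPKM in vehicle. The most abundant were CD99 (means of 599 FPKM in JIB-04 and 1160 in vehicle) and CCND1 (929.5 and 1352). The list was mixed. FLI1 and LIPI were higher in JIB-04 without overlap, NR0B1 overlapped, and the others were lower without overlap. The 7 markers of leukocytes, epithelium, endothelium, muscle and liver summed to 1.58 to 2.61 FPKM in JIB-04 and 0.855 to 1.13 FPKM in vehicle, with CDH1, MYH1 and ALB listed at 0 in all vehicle libraries. The part of either marker difference in the results was not tested.

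The 10 genes split in direction. By limma, with adjustment over all 17460 genes that had a mean of at least 1 FPKM and a threshold of 0.05 on the adjusted p, 5 of them fell with JIB-04 (XRCC5, XRCC6, PRKDC, CHEK1 and CHEK2), 4 rose (XRCC4, LIG4, ATM and ATR), and TP53BP1 did not pass. Of all genes tested, 72.2% passed, 38.0% lower and 34.2% higher, so 9 of 10 stands beside a high background. LIG4 and CHEK2 changed at least 2-fold, as did 24.9% of all genes tested. For 7 of the 10 genes the groups did not overlap, 2 higher and 5 lower with JIB-04, against 67.3% of all genes (31.9% higher and 35.4% lower). The log2 fold changes of the 10 genes had a median of −0.14, beside −0.07 for all genes tested. These are bulk libraries, in which fewer cells of a type and less RNA per cell cannot be told apart.

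**Figure D1:**
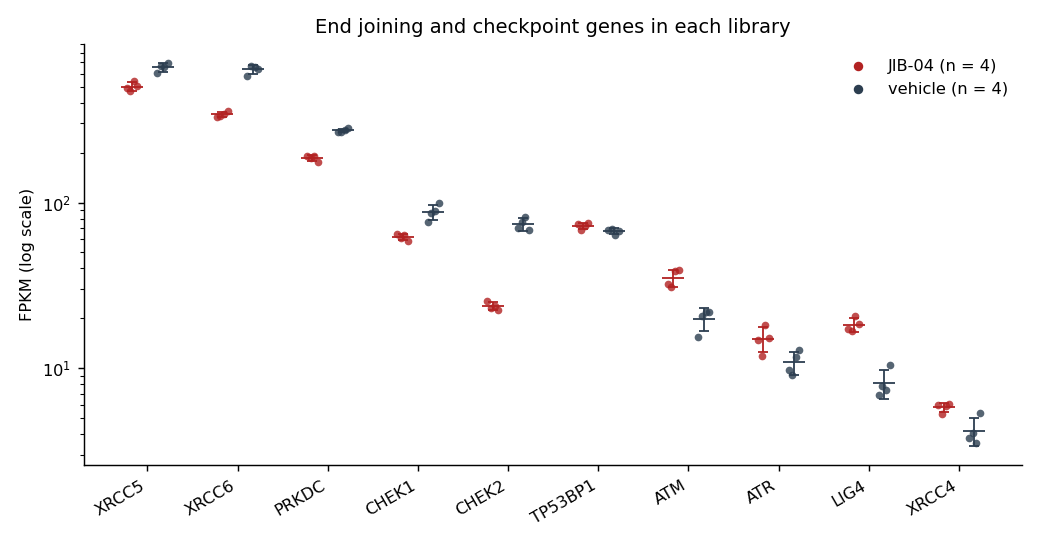
FPKM of each of the 10 genes on a log axis, with the 4 JIB-04 libraries left of the 4 vehicle libraries; points are libraries and lines are group means. LIG4 and ATM lay higher in every JIB-04 library than in any vehicle library, and CHEK2 and XRCC6 lay lower.

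XRCC5 encodes Ku80 (ENSG00000079246, GRCh38 chr2:216107464-216206303, plus strand). Its FPKM were 489, 468, 539 and 507 in JIB-04 libraries and 601, 670.2, 658 and 691 in vehicle libraries. Every JIB-04 library lay below every vehicle library. The means were 501 ± 30.1 FPKM in JIB-04 and 655 ± 38.7 FPKM in vehicle (SD, n = 4 each), a log2 fold change of −0.39 ± 0.06 (SE, limma adjusted p = 0.00019).

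XRCC6 encodes Ku70, the other subunit of the ring (ENSG00000196419, chr22:41621119-41664048, plus strand). Its FPKM were 328, 335, 341 and 356 in JIB-04 libraries and 583, 667, 658 and 639 in vehicle libraries. The groups did not overlap, and the JIB-04 libraries lay close together, with a mean of 339.9 ± 11.7 FPKM against 637 ± 37.6 FPKM in vehicle. The log2 fold change was −0.90 ± 0.05 (limma adjusted p = 2.44e-07). XRCC6 has processed pseudogenes, near copies to which reads could be split. XRCC6P2 averaged 58.7 ± 1.92 FPKM in JIB-04 and 115 ± 4.68 FPKM in vehicle, and XRCC6P1, XRCC6P4 and XRCC6P5 were likewise lower in JIB-04, with log2 fold changes of −0.73, −0.86 and −1.13. XRCC6P3 was too low to be tested and its groups overlapped, at 0.443 ± 0.0496 FPKM in JIB-04 and 0.724 ± 0.273 FPKM in vehicle. With the pseudogene values added to those of the gene, the log2 fold change of XRCC6 was −0.91 (limma adjusted p = 8.51e-08).

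The promoter of XRCC6 is shown because a second gene, DESI1, starts beside it on the other strand and was measured in the same libraries. The window is the RefSeq one (GRCh38.p14, chr22:41621045-41621344, plus strand, printed 5′ to 3′), and capitals mark the 24 bases from the annotated start of DESI1 to that of XRCC6.
XRCC6: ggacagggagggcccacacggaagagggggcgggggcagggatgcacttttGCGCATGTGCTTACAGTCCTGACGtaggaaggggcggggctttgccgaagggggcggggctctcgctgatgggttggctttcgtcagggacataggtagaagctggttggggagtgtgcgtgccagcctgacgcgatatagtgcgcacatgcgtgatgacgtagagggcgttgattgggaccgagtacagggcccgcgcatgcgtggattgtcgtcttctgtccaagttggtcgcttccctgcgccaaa
This window held 1 E2F match, 1 CCAAT box and 3 GC boxes on either strand, by the motif letters given with the comparison of promoters.

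The 2 Ku genes did not fall to the same extent. The ratio of XRCC5 to XRCC6 within a library was 1.49, 1.40, 1.58 and 1.43 in JIB-04 and 1.03, 1.01, 1.00 and 1.08 in vehicle. Such a ratio does not depend on a scaling factor shared by all genes of a library. All 4 JIB-04 ratios lay above all vehicle ratios, a difference of 0.52 on the log2 scale (exact two-sided permutation p = 0.0286, the smallest that 4 against 4 libraries allow; 0.0429 adjusted over 6 ratios). XRCC5 lay above XRCC6 within every library of both groups, and the ranges of the levels overlapped in vehicle only.

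PRKDC encodes the catalytic kinase DNA-PKcs (ENSG00000253729, chr8:47773108-47960183, minus strand). Its FPKM were 191, 187, 192 and 175 in JIB-04 libraries and 268, 266, 275 and 281 in vehicle libraries. The groups did not overlap and varied little within themselves. The means were 186 ± 7.80 FPKM in JIB-04 and 272 ± 6.74 FPKM in vehicle (log2 fold change −0.55 ± 0.04, limma adjusted p = 1.99e-06). XRCC5, XRCC6 and PRKDC were the 3 highest of the 10 genes in both groups, and all 3 fell.

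LIG4, the ligase of classical end joining (ENSG00000174405, chr13:108207439-108218368, minus strand), had 17.3, 16.7, 20.8 and 18.4 FPKM in JIB-04 libraries and 6.86, 7.86, 7.35 and 10.5 FPKM in vehicle libraries. Each JIB-04 library lay above all vehicle libraries, of which replicate 4 was the highest. The means were 18.3 ± 1.81 FPKM in JIB-04 and 8.15 ± 1.63 FPKM in vehicle, a log2 fold change of 1.13 ± 0.13 (limma adjusted p = 3.73e-05). LIG4 was the only one of the 10 genes to rise at least 2-fold, as 13.1% of all genes tested did.

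LIG4 also has a second gene at its start, ABHD13, and its promoter is shown for that reason (RefSeq, GRCh38.p14, chr13:108218300-108218599, minus strand, 5′ to 3′). Capitals mark the 12 bases from the annotated start of LIG4 to that of ABHD13.
LIG4: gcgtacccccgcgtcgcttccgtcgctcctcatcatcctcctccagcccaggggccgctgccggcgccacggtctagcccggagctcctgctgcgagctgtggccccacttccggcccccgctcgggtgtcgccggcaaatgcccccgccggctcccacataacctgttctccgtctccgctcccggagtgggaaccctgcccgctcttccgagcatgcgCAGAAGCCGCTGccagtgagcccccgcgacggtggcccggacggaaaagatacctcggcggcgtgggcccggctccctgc
None of the motifs searched was in this window.

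XRCC4, the scaffold that holds LIG4 (ENSG00000152422, chr5:83077498-83353787, plus strand), was the least abundant of the 10 genes in both groups. It had 5.96, 5.29, 5.94 and 6.11 FPKM in JIB-04 libraries and 3.81, 4.09, 3.53 and 5.35 FPKM in vehicle libraries. The groups overlapped, because JIB-04 replicate 2 lay just below vehicle replicate 4. The means were 5.83 ± 0.365 FPKM in JIB-04 and 4.19 ± 0.801 FPKM in vehicle, and XRCC4 rose by limma (log2 fold change 0.44 ± 0.13, adjusted p = 0.0101), while the exact permutation test of this gene alone gave p = 0.0571. With the GC trend of each library removed, the call was lost and the sign turned (−0.059, limma adjusted p = 0.607). LIG4 rose more than its scaffold did. The LIG4 to XRCC4 ratio averaged 3.14 ± 0.262 in JIB-04 and 1.94 ± 0.116 in vehicle, higher in all 4 JIB-04 libraries by 0.69 on the log2 scale (exact permutation p = 0.0286, adjusted p = 0.0429).

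TP53BP1 encodes the chromatin-bound factor that shields broken ends from resection (ENSG00000067369, chr15:43403061-43510728, minus strand). Its FPKM were 74.1, 68.4, 72.4 and 75.3 in JIB-04 libraries and 68.5, 69.6, 63.8 and 67.6 in vehicle libraries. JIB-04 replicate 2 lay inside the vehicle range, so the groups overlapped. The means were 72.5 ± 3.004 FPKM in JIB-04 and 67.4 ± 2.52 FPKM in vehicle, and the log2 fold change of 0.11 ± 0.05 did not pass (limma adjusted p = 0.0750). It passed when values were rescaled to TPM (0.27, adjusted p = 0.00092), after median-ratio scaling (0.17, adjusted p = 0.0159) and without JIB-04 replicate 2 (0.13, adjusted p = 0.0375). BRCA1, which acts against TP53BP1 by favoring resection, gave a TP53BP1 to BRCA1 ratio of 5.10 ± 0.406 in JIB-04 and 4.53 ± 0.413 in vehicle, with overlap between the groups (log2 difference 0.17, exact permutation p = 0.114, adjusted p = 0.114).

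Both apical checkpoint kinases rose. ATM, activated by double-strand breaks (ENSG00000149311, chr11:108222484-108369102, plus strand), had 32.4, 30.8, 38.4 and 39.2 FPKM in JIB-04 libraries and 15.4, 20.6, 21.7 and 21.9 FPKM in vehicle libraries. The groups did not overlap. Means were 35.2 ± 4.24 FPKM in JIB-04 and 19.9 ± 3.03 FPKM in vehicle, a log2 fold change of 0.81 ± 0.13 (limma adjusted p = 0.00029).

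ATR, activated by single-stranded DNA coated with the RPA proteins (ENSG00000175054, chr3:142449235-142578826, minus strand), had 14.9, 11.9, 18.2 and 15.3 FPKM in JIB-04 libraries and 9.76, 9.13, 11.7 and 12.9 FPKM in vehicle libraries. The groups overlapped through JIB-04 replicate 2, which lay below vehicle replicate 4. The means were 15.1 ± 2.60 FPKM in JIB-04 and 10.9 ± 1.72 FPKM in vehicle, and the log2 fold change of 0.45 ± 0.14 passed (limma adjusted p = 0.0187; exact permutation p = 0.0571 for this gene alone). The call was lost with the GC trend removed (0.16, limma adjusted p = 0.263), without vehicle replicate 2 (0.38, limma adjusted p = 0.0537) and by an analysis of variance of the FPKM themselves (0.45, adjusted p = 0.0514). The ATM to ATR ratio overlapped between the groups, 2.36 ± 0.257 in JIB-04 and 1.85 ± 0.291 in vehicle (log2 difference 0.36, exact permutation p = 0.0857, adjusted p = 0.103). Against its obligate partner ATRIP, ATR was higher in every JIB-04 library, with a ratio of 3.75 ± 0.859 in JIB-04 and 1.89 ± 0.363 in vehicle (log2 difference 0.91, exact permutation p = 0.0286, adjusted p = 0.0429). This ratio also holds a fall of ATRIP. ATRIP averaged 4.07 ± 0.581 FPKM in JIB-04 and 5.78 ± 0.295 FPKM in vehicle, without overlap (log2 fold change −0.46, limma adjusted p = 0.0034).

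The kinases they signal to fell. CHEK1, the target of ATR (ENSG00000149554, chr11:125625136-125676255, plus strand), had 65.0, 61.4, 63.4 and 58.9 FPKM in JIB-04 libraries and 76.8, 86.6, 89.1 and 98.7 FPKM in vehicle libraries. All JIB-04 libraries lay below all vehicle libraries. Means were 62.2 ± 2.63 FPKM in JIB-04 and 87.8 ± 9.01 FPKM in vehicle, a log2 fold change of −0.49 ± 0.07 (limma adjusted p = 0.00025).

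CHEK2, the target of ATM (ENSG00000183765, chr22:28687743-28742422, minus strand), had 25.5, 23.0, 23.8 and 22.5 FPKM in JIB-04 libraries and 69.9, 76.0, 82.2 and 67.8 FPKM in vehicle libraries. The highest JIB-04 library was far below the lowest vehicle library. The means were 23.7 ± 1.31 FPKM in JIB-04 and 74.0 ± 6.51 FPKM in vehicle, a log2 fold change of −1.62 ± 0.07 (limma adjusted p = 7.13e-08). This was the largest change of the 10 genes, at the 3.33rd percentile of log2 fold changes over all genes tested. The pseudogene CHEK2P2 was listed at 0 in all JIB-04 libraries and at 0.163, 0.688, 0.169 and 0.0937 FPKM in vehicle libraries, and CHEK2P3, CHEK2P4 and CHEK2P5 were listed at 0 throughout.

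The CHEK2 promoter is shown because it carried the most CCAAT boxes of the windows matched (RefSeq, GRCh38.p14, chr22:28741771-28742070, minus strand, 5′ to 3′). Capitals mark these 3 CCAAT boxes, all of which read ATTGG on the printed strand.
CHEK2: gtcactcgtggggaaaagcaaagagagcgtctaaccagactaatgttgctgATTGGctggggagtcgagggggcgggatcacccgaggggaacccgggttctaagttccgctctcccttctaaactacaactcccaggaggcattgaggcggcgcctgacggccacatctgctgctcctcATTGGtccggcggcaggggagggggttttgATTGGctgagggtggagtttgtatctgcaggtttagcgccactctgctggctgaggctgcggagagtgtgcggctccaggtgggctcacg
The window also held 1 GC box.

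Because CHEK2 fell further than CHEK1, the balance of the effector kinases differed between the groups. CHEK1 exceeded CHEK2 by a ratio of 2.62 ± 0.0562 in JIB-04 and 1.19 ± 0.176 in vehicle, with libraries at 2.55 to 2.67 in JIB-04 and 1.08 to 1.46 in vehicle. The difference was 1.13 on the log2 scale (exact permutation p = 0.0286, adjusted p = 0.0429).

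**Figure D2:**
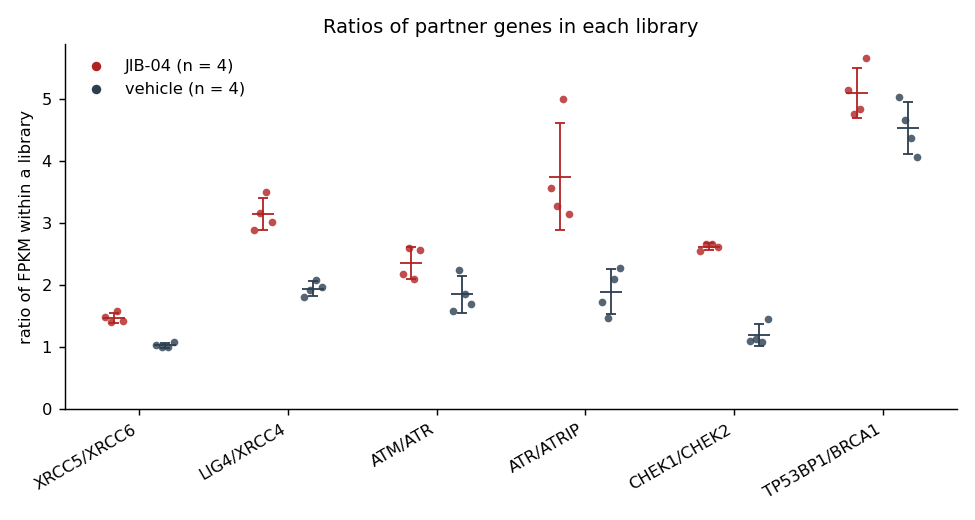
Within-library ratios of 6 partner pairs on a linear axis, with the 4 JIB-04 libraries left of the 4 vehicle libraries; points are libraries and lines are group means. XRCC5/XRCC6, LIG4/XRCC4, ATR/ATRIP and CHEK1/CHEK2 were higher in every JIB-04 library, and ATM/ATR and TP53BP1/BRCA1 overlapped.

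The order of levels shifted with these changes. In JIB-04 it ran XRCC5, XRCC6, PRKDC, TP53BP1, CHEK1, ATM, CHEK2, LIG4, ATR and XRCC4, and only LIG4 and ATR overlapped as neighbors. In vehicle it ran XRCC5, XRCC6, PRKDC, CHEK1, CHEK2, TP53BP1, ATM, ATR, LIG4 and XRCC4, where XRCC5 overlapped XRCC6, CHEK1 overlapped CHEK2, CHEK2 overlapped TP53BP1 and ATR overlapped LIG4. CHEK2 stood above ATM in every vehicle library and below ATM in every JIB-04 library. The 5 genes that fell were the 5 most abundant in vehicle and the 4 that rose were the 4 least abundant. The fold change is taken over the vehicle level, so an order by that level is not independent of direction. In the JIB-04 order TP53BP1 stood above CHEK1 and CHEK2, and ATM stood above CHEK2. Across all 17460 genes the mean level over all 8 libraries, not the vehicle level, had a Spearman rho of −0.02 with the log2 fold change. This is given as a description since genes are not independent replicates.

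**Figure D3:**
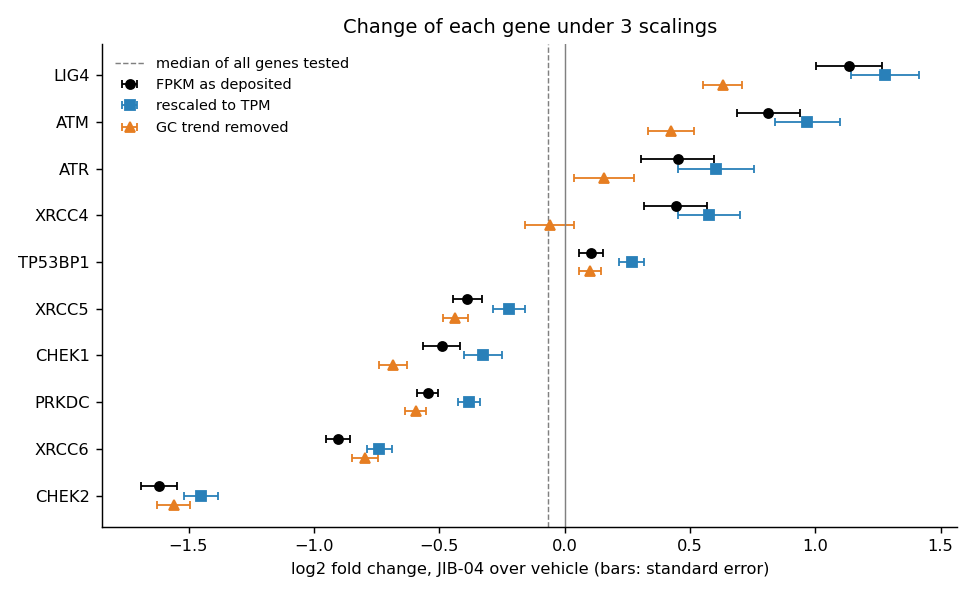
Log2 fold change, JIB-04 over vehicle, of the 10 genes with its standard error from limma. Each gene is shown as deposited, rescaled to TPM and with the GC trend removed, beside the median of all genes tested as deposited. As deposited, CHEK2 at −1.62 and LIG4 at 1.13 stood farthest from the median of −0.07.

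The base composition of the transcripts moved with the changes. Over the 17342 genes with a value (99.3% of those tested), the log2 fold change and the GC content of the longest transcript had a Spearman rho of −0.30. The 4 genes that rose had low GC content, 36.2% for LIG4, 36.7% for XRCC4, 39.1% for ATM and 40.0% for ATR. They lay in the lowest 2 of 10 equal classes of GC content, where 55.0% and 49.4% of all genes rose and the median log2 fold changes were 0.39 and 0.29. XRCC6 with 50.7% and CHEK2 with 49.6% lay in classes with medians of −0.23 and −0.12, while CHEK1 with 41.5% lay in a class with a median of 0.12.

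With the GC trend of each library removed, the 5 falls still passed, at −0.44 for XRCC5, −0.80 for XRCC6, −0.59 for PRKDC, −0.68 for CHEK1 and −1.56 for CHEK2 on the log2 scale. LIG4 at 0.63 (limma adjusted p = 6.01e-05) and ATM at 0.42 (adjusted p = 0.0026) still passed as well. ATR at 0.16 (adjusted p = 0.263) and XRCC4 at −0.059 (adjusted p = 0.607) did not. The rises of LIG4 and ATM were thus smaller with the trend removed, and those of ATR and XRCC4 were not detected. A GC trend does not cancel in a within-library ratio of genes of unlike GC content. The ratios were not recomputed with the trend removed.

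**Figure D4:**
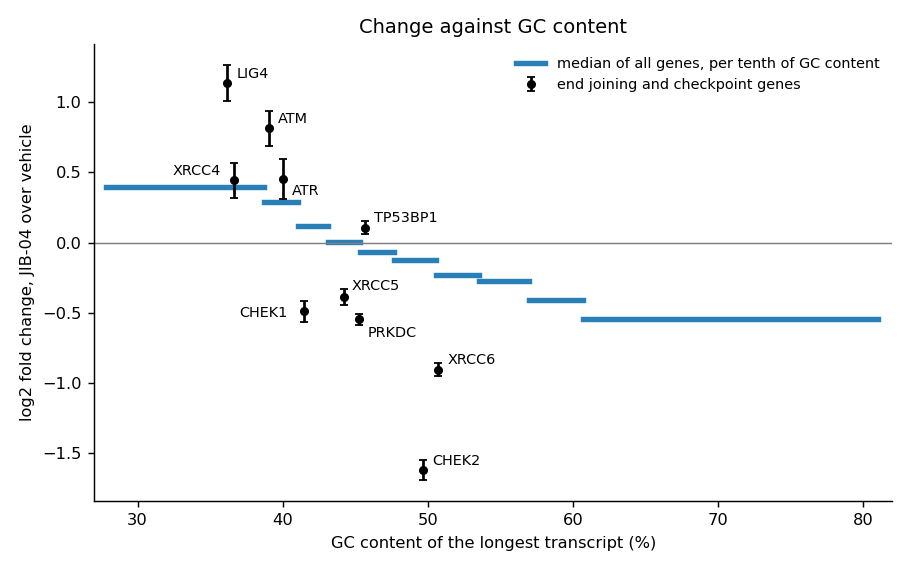
Log2 fold change (JIB-04 over vehicle, with its standard error) of the 10 genes against the GC content of the longest transcript in percent; bars are medians of all genes tested in 10 equal classes of GC content. XRCC4 and ATR lay near the bars of their classes, at 0.39 and 0.29, and CHEK2, XRCC6 and CHEK1 lay below theirs.

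A gene that starts within 1000 bases on the other strand was annotated for 7 of the 10 genes, and XRCC5, ATR and CHEK1 had none. The neighbors of XRCC6, PRKDC, LIG4 and TP53BP1 start upstream and point away. Those of XRCC4, ATM and CHEK2 start inside the listed gene and run across its start, so these pairs overlap. NPAT, a regulator of histone gene transcription that starts beside ATM, averaged 37.3 ± 2.25 FPKM in JIB-04 and 13.0 ± 3.27 FPKM in vehicle and rose with ATM (log2 fold change 1.51 ± 0.14, limma adjusted p = 9.41e-06). TMEM167A beside XRCC4 averaged 134 ± 27.7 FPKM in JIB-04 and 83.6 ± 4.52 FPKM in vehicle and also rose (0.66 ± 0.13, adjusted p = 0.0011). MCM4, a subunit of the replicative helicase beside PRKDC, averaged 584 ± 24.3 FPKM in JIB-04 and 663 ± 29.7 FPKM in vehicle and fell (−0.18 ± 0.04, adjusted p = 0.0045). In these 3 pairs both genes changed in the same direction.

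The other 4 pairs did not move together by the test. DESI1, separated from XRCC6 by 23 bases, averaged 124 ± 3.11 FPKM in JIB-04 and 103 ± 9.18 FPKM in vehicle and rose (0.27 ± 0.06, limma adjusted p = 0.0037) where XRCC6 fell. The XRCC6 to DESI1 ratio averaged 2.74 in JIB-04 and 6.18 in vehicle, lower in all 4 JIB-04 libraries (log2 difference −1.17, exact permutation p = 0.0286, 0.0333 adjusted over 7 pairs). ABHD13, 11 bases from LIG4, averaged 8.06 ± 1.64 FPKM in JIB-04 and 6.89 ± 0.636 FPKM in vehicle and did not pass (0.20 ± 0.14, limma adjusted p = 0.226), and the LIG4 to ABHD13 ratio averaged 2.31 in JIB-04 and 1.18 in vehicle (log2 difference 0.94, exact permutation p = 0.0286, adjusted p = 0.0333). HSCB, an iron-sulfur cluster chaperone beside CHEK2, averaged 10.9 ± 0.781 FPKM in JIB-04 and 12.1 ± 0.650 FPKM in vehicle and did not pass (−0.15 ± 0.07, limma adjusted p = 0.0996). MAP1A, a microtubule-associated protein beside TP53BP1, averaged 30.4 ± 0.276 FPKM in JIB-04 and 85.0 ± 1.54 FPKM in vehicle and fell (−1.47 ± 0.04, limma adjusted p = 4.65e-09), while TP53BP1 did not pass.

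Within the library, the ratio of the listed gene to its neighbor differed for 6 of the 7 pairs (exact permutation p = 0.0286 and adjusted p = 0.0333 for each). XRCC4 to TMEM167A was the exception, with overlapping groups (log2 difference −0.21, exact permutation p = 0.286). The share of other gene pairs that differ was not computed, and 67.3% of all genes tested had groups that did not overlap. The count of pairs is therefore not read as particular to these positions. Several genes overlap the listed ones, by 6711 bases for TUBGCP4 opposite TP53BP1, 60584 bases for C11orf65 opposite ATM, 159 bases for NPAT and ATM, 366 bases for TMEM167A and XRCC4, 392 bases for HSCB and CHEK2, and 80 bases for STT3A on the strand of CHEK1. The libraries were directional, but no source used here says whether the counting used strand, so reads of overlapping genes may not be told apart.

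**Figure D5:**
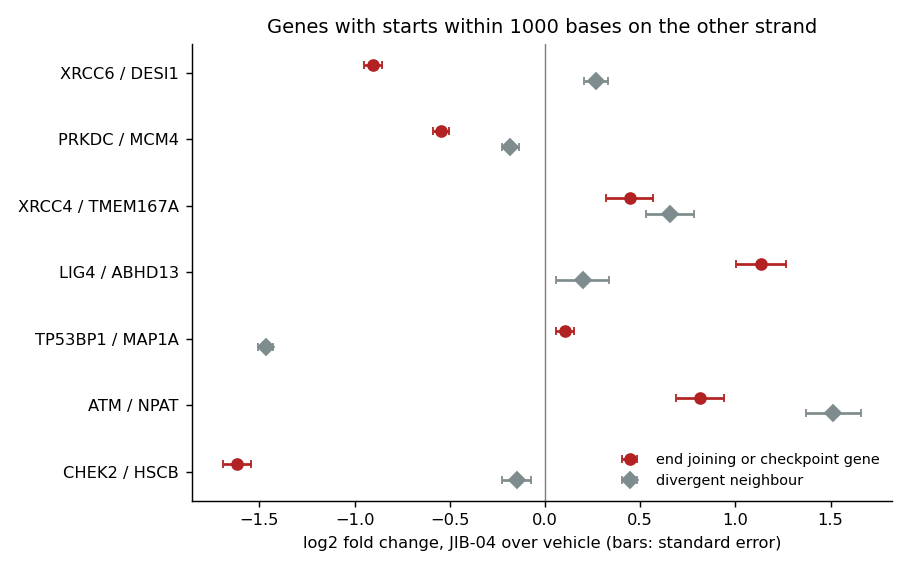
Log2 fold change, JIB-04 over vehicle, with its standard error, of 7 listed genes and of the gene that starts beside each on the other strand. MAP1A at −1.47 lay far from TP53BP1 at 0.11, and DESI1 at 0.27 lay far from XRCC6 at −0.90.

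Promoter windows of 300 bases from RefSeq (GRCh38.p14, 250 bases before to 50 after the start) matched 8 of the 10 genes. The CCAAT box was found in 6 of the 8 windows and in 34.6% of 35116 windows, and the GC box GGGCGG in 6 of the 8 and in 45.0% of all. For E2F factors, TTCCCGC was searched together with its form TTGGCGC and the related letters TTCGCGC, and any of them was in 1 of the 8 (XRCC6) and in 11.0% of all. TTTGAA was in 1 of the 8 (ATM) and in 15.2% of all, and ACGTG was in 1 of the 8 (XRCC4) and in 21.4% of all. Both strands were searched, none of these motifs contains another although matches may overlap at their ends, and a match is a description of the letters. The RefSeq start and the GENCODE start of a gene differed by up to 1088 bases, for CHEK1.

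The partners of these genes in classical end joining were also mixed in direction. Of 17 end joining factors, 6 rose, 7 fell and 4 did not pass, with a median log2 fold change of −0.15. Among all genes tested, 34.2% rose and 38.0% fell, with a median of −0.07. ERCC6L2, a helicase-like factor that promotes end joining, averaged 48.0 ± 3.35 FPKM in JIB-04 and 16.4 ± 1.61 FPKM in vehicle (log2 fold change 1.52 ± 0.08, limma adjusted p = 2.09e-07). CYREN, a Ku-binding inhibitor of end joining, fell by 1.54 on the log2 scale, to 17.4 ± 1.03 FPKM in JIB-04 against 51.5 ± 2.59 FPKM in vehicle (limma adjusted p = 3.98e-08). PAXX, a paralog of XRCC4 that binds Ku, fell to 46.4 ± 4.66 FPKM in JIB-04, against 124 ± 8.19 FPKM in vehicle (−1.41 ± 0.08, limma adjusted p = 2.84e-07).

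Of the 9 genes of microhomology and single-strand end joining, 2 rose, 5 fell and 2 did not pass (median −0.32). Beside these stand 34.2% of all genes higher and 38.0% lower. The 3 with the smallest p all fell. PARP1, which detects strand breaks, averaged 206 ± 11.9 FPKM in JIB-04 and 456 ± 8.94 FPKM in vehicle (log2 fold change −1.15, limma adjusted p = 3.81e-08). XRCC1, the scaffold of single-strand break repair, averaged 48.4 ± 0.460 FPKM in JIB-04 and 118 ± 4.16 FPKM in vehicle (−1.28, limma adjusted p = 1.24e-08). LIG1, the ligase of replication, averaged 82.3 ± 4.29 FPKM in JIB-04 and 189.8 ± 12.7 FPKM in vehicle (−1.20, limma adjusted p = 1.32e-07), so that LIG1 fell where LIG4 rose. POLQ, the polymerase of microhomology joining, was among the 2 that rose. It averaged 21.6 ± 1.89 FPKM in JIB-04 and 13.0 ± 1.78 FPKM in vehicle, without overlap (0.72, limma adjusted p = 0.00019).

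Genes of break sensing and of chromatin signaling at breaks formed another list, called break sensing here. Of its 16 genes, 1 rose, 6 fell and 9 did not pass (median −0.17), beside 34.2% of all genes higher and 38.0% lower. The number of rises was 4 by TPM and 3 after median-ratio scaling, and the number of falls was 10 with the GC trend of each library removed. ABRAXAS1, the scaffold of the BRCA1-A complex, averaged 5.03 ± 0.624 FPKM in JIB-04 and 12.5 ± 1.53 FPKM in vehicle (log2 fold change −1.23, limma adjusted p = 8.81e-06). MDC1, which reads phosphorylated histone H2AX, fell to 26.8 ± 1.53 FPKM in JIB-04 against 39.9 ± 1.86 FPKM in vehicle (−0.56, limma adjusted p = 2.18e-05), and USP28, a deubiquitinase that binds TP53BP1, fell to 18.4 ± 2.24 FPKM in JIB-04 against 30.4 ± 1.67 FPKM in vehicle (−0.71, limma adjusted p = 5.62e-05).

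The next list holds genes that activate ATR. Of 15 listed, RAD9B lay below 1 FPKM and was not tested, 3 rose, 9 fell and 2 did not pass (median −0.26), beside 38.0% of all genes lower. The number of falls was 5 after rescaling to TPM. TIMELESS, which protects the replication fork, averaged 28.8 ± 0.621 FPKM in JIB-04 and 83.5 ± 4.06 FPKM in vehicle (log2 fold change −1.52, limma adjusted p = 1.27e-08). RPA1 and RPA3, subunits of the protein that coats single-stranded DNA, fell by 0.73 and 1.31 on the log2 scale (limma adjusted p = 2.53e-06 and 2.54e-06).

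The genes listed as checkpoint effectors were evenly divided, with 9 of 20 higher, 9 lower and 2 not past the test (median −0.07). Whether any of these changes lay downstream of CHEK1 or CHEK2 was not tested. Beside these stand 34.2% of all genes higher and 38.0% lower. The 3 with the smallest p all rose by large amounts. GADD45A, a growth arrest gene, averaged 527 ± 16.0 FPKM in JIB-04 and 41.1 ± 1.98 FPKM in vehicle (log2 fold change 3.66 ± 0.05, limma adjusted p = 1.75e-10). CDKN1A, the cyclin-dependent kinase inhibitor p21, averaged 264 ± 27.4 FPKM in JIB-04 and 22.7 ± 2.89 FPKM in vehicle (3.51 ± 0.10, limma adjusted p = 7.17e-09), and BTG2, an antiproliferative gene, averaged 111 ± 4.03 FPKM in JIB-04 and 14.6 ± 0.700 FPKM in vehicle (2.88 ± 0.05, limma adjusted p = 6.64e-10).

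ATM, ATR and DNA-PKcs belong to the PIKK family of large kinases, whose assembly needs shared chaperones. Of 10 other members and assembly factors, 3 rose, 6 fell and 1 did not pass (median −0.33), beside 34.2% of all genes higher and 38.0% lower. The chaperone ATPases RUVBL1 and RUVBL2 fell by 1.16 and 0.86 on the log2 scale (limma adjusted p = 7.54e-09 and 3.06e-06), and TRRAP, a family member without kinase activity, fell by 0.74 (limma adjusted p = 1.66e-06). RUVBL1 averaged 118 ± 1.53 FPKM in JIB-04 and 263 ± 5.89 FPKM in vehicle. Over all 6 lists, 24 of 86 tested genes rose, 42 fell and 20 did not pass, with a median of −0.21. The median of all genes tested was −0.07. No total over the lists was taken under the other scalings.

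Among these list genes and the other members, the gene most like each by Pearson r of log2(FPKM + 0.5) over the 8 libraries was TIMELESS for CHEK2 (r = 0.997), RPA1 for XRCC6 (0.996), RPAP3, an assembly factor, for LIG4 (0.996) and RUVBL1 for PRKDC (0.986). SHLD2, a shieldin subunit, was the closest to both CHEK1 (0.980) and XRCC5 (0.974). RIF1, which acts with TP53BP1, was closest to XRCC4 (0.973), and POLQ, the polymerase of microhomology joining, to ATM (0.971) and ATR (0.890). The closest to TP53BP1 was HUS1 (0.811), a subunit of the checkpoint clamp. These values hold the difference between the groups as well as the spread within them and are given as a description.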

How the data were processed

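RNA-seq libraries of A673 cells were compared, 4 treated with JIB-04 and 4 with vehicle. The authors, per the submitters' processing notes, aligned to GRCh38 with GSNAP, used SAMtools and calculated FPKM with Cufflinks, and the deposited FPKM were taken without further scaling. The sources used here do not give the annotation release, and read length differs between the paper (50 cycles) and the labels (151 bp). Identifiers with more than 1 row (117) were summed, 13 with a placeholder value were left out and 33 symbols turned into dates were restored. None of the genes listed was among the summed or left-out identifiers. The 10 genes and the 6 lists were chosen with earlier results of these data known.

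Values were compared on log2(FPKM + 0.5) with limma 3.58.1 (lmFit, eBayes with trend) in R 4.3.3 over the 17460 genes that averaged 1 FPKM or more, and p-values were adjusted by Benjamini-Hochberg (threshold 0.05). Because of the 0.5 added, a log2 fold change understates that of low genes. Ratios within libraries were compared by an exact two-sided permutation test. Coordinates, neighbors and GC content are those of GENCODE 29. Named genes were the 10 genes, from each list the 3 of lowest adjusted p, every neighbor that starts on the other strand, the pseudogenes, the partners in ratios and the most correlated list gene. TUBGCP4, C11orf65 and STT3A were named afterwards, for their overlap in position. Sequences are from RefSeq.

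FPKM do not give the absolute depth, and precision rests on the spread between libraries. Steps in low values gave only a rough relative depth, 0.766 to 0.926 in JIB-04 and 0.822 to 0.954 in the other vehicle libraries, set against vehicle replicate 1. The fit was tested on simulated data with 200 of 17460 genes changed, far fewer than the 72.2% called here. It recovered 52% of 1.5-fold and 86% of 2-fold changes, and 96% of larger ones. Of its calls, 7.82% were false, which is more than the threshold aims at. The alternatives were pseudocounts of 0.1 and 1, no filter, a filter of 5 FPKM, TPM, median-ratio and quantile scaling, analysis of variance of FPKM, a replicate block and leaving out each library. The removal of the GC trend, the sum of XRCC6 with its pseudogenes and the neighbor ratios were chosen after seeing the data.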

Additional observations from a re-analysis of the deposited data

How the results depend on the processing

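Of the 10 genes, all kept their direction under other pseudocounts, filters and scalings. Rescaling to TPM moved the median of all genes by 0.15, to 0.08 on the log2 scale, with 7061 genes higher and 5424 lower, against 5964 and 6640 as deposited, and TP53BP1 then passed (0.27), as it did after median-ratio scaling (0.17) and without JIB-04 replicate 2 (0.13). ATR did not pass by analysis of variance (0.45) or without vehicle replicate 2 (0.38). With the GC trend removed, an alternative chosen after seeing the data, 2 of the 10 genes were higher instead of 4, ATR was 0.16 and XRCC4 was −0.059. Among all 17342 genes in that run, 5899 were higher and 6622 lower. For break sensing, the number higher was 1 as reported, 4 by TPM, 3 by median-ratio scaling and 2 with the GC trend removed, and the number lower was 10 with the GC trend removed, against 6. For ATR activation the number lower was 5 by TPM, against 9. The cause was not tested. With no filter, 8223 of 34783 genes were higher and 7293 lower.

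Leaving out each library in turn gave 3 to 5 of the 10 genes higher and 5 lower, 1 to 2 break sensing genes higher, and 7 to 10 of the 10 genes with groups that did not overlap (10 without JIB-04 replicate 2, and 9 without vehicle replicate 4). That last count can only stay or rise when a library is left out, so its range is no check on it. The share of all genes whose groups did not overlap was not computed for these runs. By limma, the same runs gave 5664 to 5955 of all genes tested higher and 6319 to 6601 lower. The lowest and highest log2 fold changes were 1.06 and 1.26 for LIG4, −1.66 and −1.57 for CHEK2, 0.70 and 0.87 for ATM, and 0.38 and 0.55 for XRCC4.

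Replicate numbers did not pair the libraries, since the deviations of same-numbered libraries correlated at −0.058 to 0.0823. With a replicate block, 5900 genes were higher and 6618 lower, and 4 and 5 of the 10 genes, with no call among them changed. The depth of the libraries is unknown, so the counting error of each value could not be given.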
